A study of Mus musculus with 6 samples.

Results

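The genes described here encode the ligands, extracellular antagonists, receptors, Smad proteins and Id proteins of bone morphogenetic protein (BMP), transforming growth factor beta (TGF-beta) and activin signalling. They were chosen by symbol. A probe set was included where its symbol was Bmp, Gdf, Smad, Tgfb, Tgfbr or Id with a number, began with Bmpr, Acvr or Inhb, or was Nog, Fst, Grem1, Chrd, Ltbp1, Ltbp2 or Inha. This gave 62 of 12422 probe sets, standing for 51 of 8251 named genes. The rule itself used symbols and no measured values, but it was set with earlier results of these data known. A probe set that lists Cers1 beside Gdf1 was not counted, because it names several genes. Total RNA had been prepared from mouse skin, whole, at 5 days after birth. In all, 3 arrays came from FVB mice, an albino inbred strain used as the comparison group with no transgene named in its labels. The other 3 came from the transgenic line GC13, in which the homeobox gene Hoxc13 is overexpressed. The sample titles name no background strain for GC13. No probe set was named Hoxc13, and its level was not analysed here. The sources used here do not give the promoter of the transgene, the cells it is active in or the animals behind each sample. The p-values thus cover the spread between these samples only, and that spread may be technical.

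In this family of pathways, a secreted dimeric ligand joins type I and type II receptor kinases on the cell surface. BMP receptors phosphorylate Smad1 and Smad5, and TGF-beta and activin receptors phosphorylate Smad2 and Smad3. These Smads join Smad4 and bind DNA. Id1, Id2 and Id3, which block basic helix-loop-helix transcription factors, and the inhibitory Smad6 and Smad7 are among the direct target genes. In growing hair, BMP signalling in the matrix is known for its role in differentiation of the hair shaft and inner root sheath, and the BMP antagonist noggin for its role in the start of follicle growth. Whole skin mixes many cell types, so fewer cells of a type and less RNA per cell cannot be told apart.

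Of 47 tested probe sets of the pathways 7, or 14.9%, had lower intensities on all 3 GC13 arrays than on all 3 FVB arrays, close to the 12.3% of all probe sets that did. They were the ligand genes Bmp2, Bmp7 and Bmp8a, the inhibitory Smad gene Smad6, and the target genes Id1 and Id3. The seventh was the TGF-beta receptor gene Tgfbr1, at low intensity. Id1 was 2.15-fold lower in the fit, from a mean intensity of 209.8 ± 10.7 to one of 95.0 ± 33.6 (SD, n = 3 each). Gdf10, Bmp6 and Id4 lay higher on every GC13 array. None of these differences passed the test over all probe sets. Id2, Smad4 and Smad7 were lower on GC13 replicates 1 and 3 only.

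Each gene was compared by limma on log2(intensity + 2), with every array centred on its median, and the fold changes below are on that scale and run as GC13 minus FVB. The scale understates the change of dim probe sets. Whether the groups overlapped was read from the deposited intensities, before centring. The threshold was a Benjamini-Hochberg adjusted p of 0.05 over the 9316 probe sets left after the dimmest 25% were removed. Of the 62 probe sets 47 were tested, for 40 genes. The other 15 had intensities between 0.663 and 13.7 and were left out for low signal. They included every probe set of Bmp8b, Bmp10, Bmp15, Gdf5, Gdf11, Inhbe, Grem1, Chrd, Bmpr1b, Tgfbr2 and Smad3. The signal of these 11 genes over background is unknown.

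Of the 47 tested probe sets 0 passed the threshold, and over all probe sets 0.472% did, 8 of them higher (0.0859%) and 36 lower in GC13 (0.386%). Without centring, that split was 2 and 26. The smallest limma adjusted p among the pathway genes was 0.126, for Id1. At an unadjusted limma p under 0.05, 8 pathway probe sets would count, 7 lower and 1 higher. The lower ones made up 14.9% of the tested pathway probe sets against 6.93% of all probe sets, and the higher one 2.13% against 8.52%. The groups did not overlap for 7 probe sets lower in GC13, which is 14.9% against a background of 12.3%. Of the 7, Tgfbr1 passed the filter on low signal through its FVB intensities alone. The groups did not overlap for 3 probe sets higher in GC13, which is 6.38% against 10.6%. The median log2 fold change of the 47 was 0.08, and that of all 9316 probe sets was also 0.08. There were 23 pathway probe sets below 0, or 48.9% against 42.6% of all, and 24 above it.

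**Figure D1:**
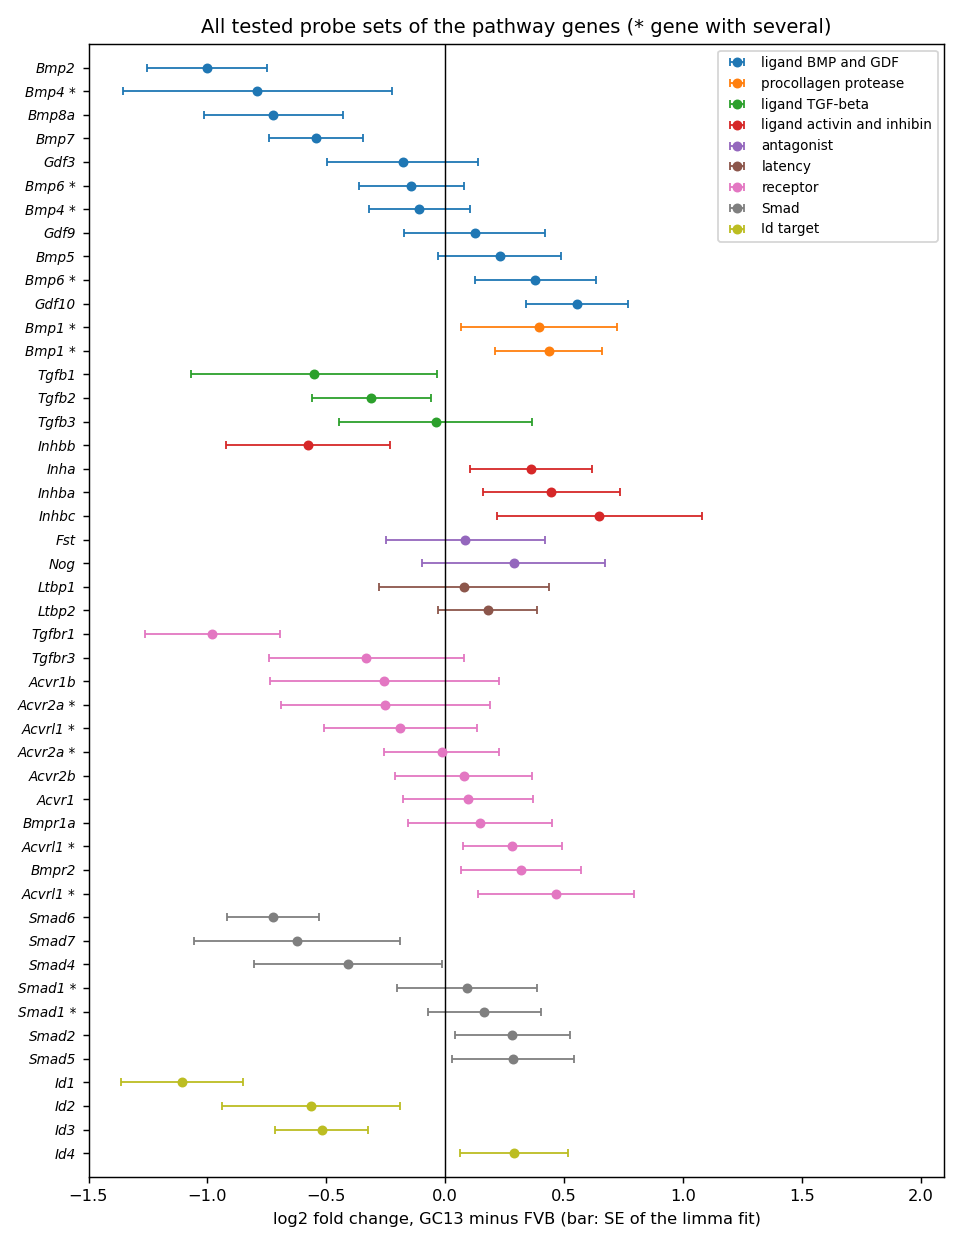
Log2 fold changes (GC13 minus FVB, x axis) of the 47 tested pathway probe sets, grouped by role, with the standard error of the limma fit as bars; an asterisk marks a gene with several tested probe sets. Of the 47 values 23 lie below 0 and 24 above, with Id1 lowest at -1.11 and Inhbc highest at 0.65, and none passed the threshold.

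RNA quality was read from the ratio of 3' to 5' control intensities, which goes up where the 5' part of a message is lost. For Gapdh it was between 0.894 and 0.958 in FVB and was 2.22, 9.58 and 2.19 on GC13 replicates 1, 2 and 3 (exact permutation test, two-sided, p = 0.1, the smallest that 3 against 3 arrays allow). For beta-actin it was 1.16 to 1.36 in FVB and 1.26, 3.80 and 1.43 in GC13 (exact permutation test, two-sided, p = 0.2), so that GC13 replicate 1 lay within the FVB range. GC13 replicate 2 had the highest ratio of both, and its intensities also stood apart for many pathway genes. Eif2s3y, a Y-linked gene, was measured at 69.4 to 98.9 in FVB, 3.25 and 4.60 on GC13 replicates 1 and 3, and 143 on GC13 replicate 2. Uty, also Y-linked and dimmer, split the arrays in the same way. It had 13.3 to 15.2 in FVB, 4.87 and 7.19 on GC13 replicates 1 and 3, and 34.7 on GC13 replicate 2. The Y-linked Kdm5d was left out for low signal. Xist, which is expressed from the inactive X, was dim and did not split the arrays in the same way, at 9.95 to 11.9 in FVB and 9.15, 1.07 and 12.6 in GC13. Of the defining skin markers, Krt1, Krt10, Col1a1, Col1a2 and Col3a1 had a lowest intensity of 1216, that of Krt1 in FVB. The probe sets of the basal keratins Krt5 and Krt14 lay between 1.62 and 14.2 and were left out for low signal. The part of RNA quality and of the animals' sex in the differences was not tested.

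Among the BMP ligand genes, Bmp2, Bmp7 and Bmp8a were lower on every GC13 array. Bmp2, which is expressed in the hair matrix, had FVB intensities of 34.7, 31.5 and 28.5 and GC13 intensities of 11.1, 10.9 and 21.8. All GC13 values lay below the lowest FVB value, with a log2 fold change of -1.0 (SE 0.25, adjusted p = 0.14 by limma). The other probe sets of Bmp2 were too dim to be tested, at 1.07 to 13.7. Bmp7, another epithelial and mesenchymal ligand of skin, had FVB intensities of 222, 225 and 232 and GC13 intensities of 167, 111 and 171. Its FVB arrays lay close together and its lowest value was that of GC13 replicate 2. The log2 fold change was -0.54 (SE 0.20, adjusted p = 0.256 by limma), a 1.46-fold difference. Bmp8a was dim, with FVB intensities of 22.5, 15.3 and 14.2 and GC13 intensities of 8.21, 11.3 and 7.64. Its log2 fold change was -0.72 (SE 0.29, adjusted p = 0.298 by limma), and its probe set may take up signal from the close paralog Bmp8b.

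Bmp4, a ligand of the dermal papilla and matrix, was measured by 2 probe sets that disagreed. The brighter had FVB intensities of 237, 223 and 183 and GC13 intensities of 203, 175 and 185, with overlapping groups and a log2 fold change of -0.11 (SE 0.21, adjusted p = 0.84 by limma). The other had FVB intensities of 152, 166 and 117 and GC13 intensities of 39.0, 187 and 63.8. On that one, GC13 replicates 1 and 3 were well below FVB and GC13 replicate 2 was above it, for a log2 fold change of -0.79 (SE 0.57, adjusted p = 0.542 by limma). Bmp6, a ligand of differentiating epidermis, also gave unlike answers. Its brighter probe set had FVB intensities of 35.9, 37.4 and 32.3 and GC13 intensities of 40.4, 53.6 and 39.1, a log2 fold change of 0.38 (SE 0.25, adjusted p = 0.514 by limma), while the dimmer one had -0.14. Gdf10, also called BMP3b, had FVB intensities of 25.5, 34.5 and 24.4 and GC13 intensities of 37.9, 37.9 and 43.2. Its GC13 values all lay above the FVB values, with a log2 fold change of 0.55 (SE 0.22, adjusted p = 0.282 by limma). Bmp5, Gdf3 and Gdf9 had overlapping groups and log2 fold changes of 0.23, -0.18 and 0.12. Bmp1, which despite its name is a procollagen protease and no ligand of this family, had FVB intensities of 115, 102 and 116 and GC13 intensities of 186, 110.4 and 141 on its brighter probe set and a log2 fold change of 0.44 (SE 0.23, adjusted p = 0.396 by limma).

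**Figure D2:**
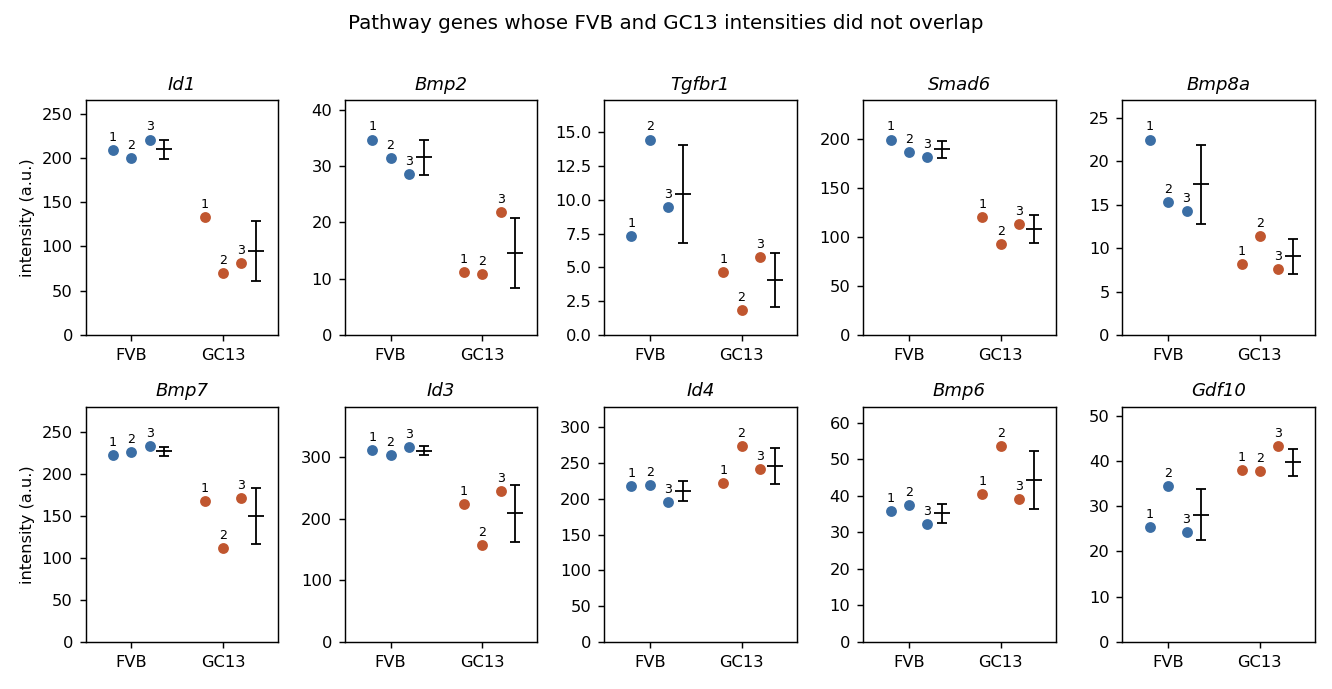
Deposited intensity (y axis, linear, from 0) of the 10 pathway genes whose groups did not overlap, on each FVB array (blue) and GC13 array (orange), with replicate numbers above the points and the mean ± SD (n = 3) in black. In 7 panels every GC13 point lies below every FVB point, and in the panels of Id4, Bmp6 and Gdf10 every GC13 point lies above; none passed the threshold.

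The 3 TGF-beta ligand genes did not separate the groups, and the array that stood out was GC13 replicate 2. Tgfb1, the isoform best known for growth arrest and immune control, had FVB intensities of 32.2, 23.3 and 28.5 and GC13 intensities of 29.5, 4.7 and 32. GC13 replicates 1 and 3 were within the FVB range and replicate 2 was far below it. Tgfb3 had FVB intensities of 133, 116 and 171 and GC13 intensities of 187, 55.9 and 196, again with replicate 2 lowest. The other probe set of Tgfb3 was too dim to be tested, at 2.33 to 5.45. The log2 fold changes were -0.55 (SE 0.52, adjusted p = 0.648 by limma) for Tgfb1 and -0.04 (SE 0.41, adjusted p = 0.976 by limma) for Tgfb3. Without GC13 replicate 2 they changed sign, to 0.11 and 0.44. Tgfb2, an isoform linked to follicle regression, had FVB intensities of 15.5, 15.4 and 14.7 and GC13 intensities of 10.9, 6.89 and 17.8 and a log2 fold change of -0.31 (SE 0.25, adjusted p = 0.59 by limma). Ltbp1 and Ltbp2, which encode proteins that hold or resemble holders of latent TGF-beta in the matrix, had 0.08 (SE 0.36) and 0.18 (SE 0.21).

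Activin and inhibin subunit genes went in different directions on GC13 replicates 1 and 3. Inhbb, the activin beta-B subunit gene, had FVB intensities of 67.0, 84.6 and 60.0 and GC13 intensities of 35.0, 66.0 and 36. GC13 replicates 1 and 3 lay below all FVB arrays while replicate 2 lay among them. Inhba, the beta-A subunit gene, had the opposite order at low intensity, with FVB intensities of 9.99, 7.55 and 8.51 and GC13 intensities of 16.9, 6.18 and 14.9. Inhbc, a subunit gene known mainly from liver, had FVB intensities of 11.8, 20.6 and 23.2 and GC13 intensities of 35.9, 11.3 and 49.8. The log2 fold changes were -0.58 (SE 0.34, adjusted p = 0.462 by limma) for Inhbb, 0.45 (SE 0.29, adjusted p = 0.495 by limma) for Inhba and 0.65 (SE 0.43, adjusted p = 0.509 by limma) for Inhbc. Inha, the inhibin alpha subunit gene, had 0.36 (SE 0.26) with overlapping groups.

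Of the antagonist genes, Fst and Nog were bright enough to test. Fst encodes follistatin, which binds activins and some BMPs. It had FVB intensities of 51.6, 50.7 and 47.5 and GC13 intensities of 68.4, 24.6 and 74.4, so that GC13 replicates 1 and 3 lay above FVB and replicate 2 below it. Its log2 fold change was 0.09 (SE 0.34, adjusted p = 0.929 by limma) with all arrays and 0.48 without GC13 replicate 2. Nog, the noggin gene, ranged from 15.1 to 41.1 within FVB alone and had a log2 fold change of 0.29 (SE 0.38, adjusted p = 0.757 by limma). The spread within FVB exceeded the difference between the groups.

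The receptor genes are described singly, because 12 tested probe sets are few for a statement on the class. Of these 12, 6 lay below 0 and 6 above. The groups did not overlap for 1 of them, beside 22.9% of all probe sets in either direction. That was Tgfbr1, the type I TGF-beta receptor gene, with FVB intensities of 7.34, 14.5 and 9.5 and GC13 intensities of 4.65, 1.85 and 5.76. The GC13 values all lay below the low-signal limit of 6.22, and the gene was kept through its FVB intensities, so its difference is given as a description only. Bmpr1a, the type I BMP receptor gene needed for hair differentiation, had FVB intensities of 117, 96.4 and 91.2 and GC13 intensities of 134, 118 and 75.8. Its groups overlapped, with a log2 fold change of 0.15 (SE 0.30, adjusted p = 0.849 by limma). Bmpr2, Acvr1, Acvr1b, Acvr2b and Tgfbr3 also overlapped, between -0.33 and 0.32.

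Acvr2a, an activin and BMP type II receptor gene, had FVB intensities of 256, 270.2 and 234 and GC13 intensities of 160.2, 380.4 and 134 on its brighter probe set. GC13 replicates 1 and 3 were below FVB and replicate 2 was above it. The log2 fold change was -0.25 (SE 0.44, adjusted p = 0.82 by limma). Its dimmer probe set had FVB intensities of 40.0, 41.4 and 39.2 and GC13 intensities of 45.9, 38.2 and 30.6 and did not show that split. Acvrl1, the ALK1 receptor gene of endothelium, had 3 tested probe sets, with log2 fold changes of -0.19, 0.28 and 0.47. The brightest of them had FVB intensities of 35.7, 42.3 and 47.6 and GC13 intensities of 77.6, 28.2 and 76.1. It was high on GC13 replicates 1 and 3 and lowest on replicate 2.

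Of 7 tested Smad probe sets 3 lay below 0, those of Smad4, Smad6 and Smad7. The groups did not overlap for 1, that of Smad6, beside 22.9% of all probe sets in either direction. Counts this small cannot describe the class. Smad1, the BMP-activated Smad, had FVB intensities of 549, 529.5 and 457 and GC13 intensities of 439.7, 693 and 453, and a dimmer probe set gave a log2 fold change of 0.17. The brighter one had 0.09 (SE 0.29, adjusted p = 0.909 by limma), a value that turns to -0.022 with quantile normalization. Smad2, the TGF-beta and activin Smad, had FVB intensities of 273, 259 and 281 and GC13 intensities of 329.6, 352 and 265 and a log2 fold change of 0.28 (SE 0.24, adjusted p = 0.614 by limma). For neither gene were the groups apart. Smad5 was dim on all arrays, with a log2 fold change of 0.29 (SE 0.25). Smad4, the partner of all activated Smads, had FVB intensities of 336, 356 and 336 and GC13 intensities of 202, 421 and 172. It was low on GC13 replicates 1 and 3 and highest on replicate 2, for a log2 fold change of -0.41 (SE 0.40, adjusted p = 0.659 by limma).

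Smad6, which damps BMP signalling and is itself induced by it, had FVB intensities of 199.8, 187 and 182 and GC13 intensities of 120.2, 92.7 and 113. All 3 GC13 arrays lay below all FVB arrays, and the mean went from 189.6 ± 9.06 to 109 ± 14.3 (SD, n = 3 each). The log2 fold change was -0.73 (SE 0.19, adjusted p = 0.153 by limma), a 1.65-fold difference. Over 16 alternatives in the processing it stayed between -0.80 and -0.62. Smad7, the inhibitor of the TGF-beta and activin branch as well as of BMP, had FVB intensities of 180.5, 203 and 187 and GC13 intensities of 81.6, 222 and 87.1. It was low on GC13 replicates 1 and 3 and high on replicate 2. Its log2 fold change was -0.62 (SE 0.44, adjusted p = 0.531 by limma).

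The Id genes are the usual readout of BMP signalling, and 3 of 4 had log2 fold changes below 0, beside 42.6% of all probe sets. The groups did not overlap for 2 lower and 1 higher, beside 12.3% and 10.6% of all probe sets. A count of 4 cannot describe the class, and none passed the threshold. Id1 had FVB intensities of 209, 199 and 221 and GC13 intensities of 133, 70.4 and 81.4. The highest GC13 value was well below the lowest FVB value, and the log2 fold change was -1.11 (SE 0.26, adjusted p = 0.126 by limma). Id3 had FVB intensities of 311, 302 and 317 and GC13 intensities of 223, 157 and 245, with GC13 replicate 2 lowest. It differed 1.43-fold, with a log2 fold change of -0.52 (SE 0.20, adjusted p = 0.271 by limma). Id2 had FVB intensities of 409, 441 and 429 and GC13 intensities of 223, 449.5 and 203. The FVB arrays lay together, GC13 replicates 1 and 3 were far below them, and replicate 2 was above them. The log2 fold change was -0.57 (SE 0.37, adjusted p = 0.507 by limma). Id4, which acts partly against the other Id proteins, had FVB intensities of 218, 219.7 and 195 and GC13 intensities of 222, 274 and 242. It was slightly higher on every GC13 array, with a log2 fold change of 0.29 (SE 0.23, adjusted p = 0.582 by limma). Id1 and Id3 kept their direction under all 16 alternatives, between -1.35 and -0.68 for Id1 and between -0.59 and -0.43 for Id3.

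Promoter sequences were taken from the RefSeq promoter table of GRCm38.p6, which spans 250 bases before to 50 bases after a gene's start and matched 36 of the 51 genes. The array's own build is not given in the sources used here. Shown are the Id genes with an entry and Smad6, because they are the textbook direct targets whose intensities differed in unlike ways. Capitals mark GGCGCC, the GC-rich core in BMP response elements, and GTCT or its reverse complement AGAC, the Smad box. Both strands were searched, each sequence runs 5′ to 3′ on the gene's strand, and all 4 windows are 300 bases long. Id2 lies at chr12:25096043-25096342 on the minus strand, Id3 at chr4:136143572-136143871 on the plus strand, Id4 at chr13:48260866-48261165 on the plus strand and Smad6 at chr9:64022010-64022309 on the minus strand.
Id2: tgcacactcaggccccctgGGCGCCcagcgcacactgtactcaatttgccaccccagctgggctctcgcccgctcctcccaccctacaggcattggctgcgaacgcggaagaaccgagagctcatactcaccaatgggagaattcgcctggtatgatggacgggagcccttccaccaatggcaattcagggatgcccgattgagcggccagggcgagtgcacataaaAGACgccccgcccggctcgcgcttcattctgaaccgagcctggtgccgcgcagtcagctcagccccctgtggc
Id3: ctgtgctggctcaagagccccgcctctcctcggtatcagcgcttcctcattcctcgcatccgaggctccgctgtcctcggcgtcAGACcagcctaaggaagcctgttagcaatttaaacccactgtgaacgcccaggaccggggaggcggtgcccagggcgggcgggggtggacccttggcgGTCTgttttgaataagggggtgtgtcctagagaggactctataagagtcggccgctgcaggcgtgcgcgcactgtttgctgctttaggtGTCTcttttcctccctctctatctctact
Id4: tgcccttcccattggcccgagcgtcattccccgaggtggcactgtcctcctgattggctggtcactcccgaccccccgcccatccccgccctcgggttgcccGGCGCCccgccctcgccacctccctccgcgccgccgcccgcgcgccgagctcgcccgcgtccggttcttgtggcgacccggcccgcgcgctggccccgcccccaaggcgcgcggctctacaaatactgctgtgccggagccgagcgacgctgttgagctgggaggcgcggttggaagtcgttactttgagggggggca
Smad6: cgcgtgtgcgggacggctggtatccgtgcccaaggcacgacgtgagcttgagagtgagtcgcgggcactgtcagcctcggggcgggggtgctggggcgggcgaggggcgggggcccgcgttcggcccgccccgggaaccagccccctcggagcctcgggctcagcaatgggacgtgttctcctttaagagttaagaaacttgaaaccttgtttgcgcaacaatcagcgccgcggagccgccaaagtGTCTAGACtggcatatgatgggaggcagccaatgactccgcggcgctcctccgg

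The Smad6 window held the palindrome GTCTAGAC, in which GTCT and AGAC stand side by side. That palindrome was in 0.213% of the 32851 promoters of this length. Id2 and Id4 each held 1 GGCGCC, which was in 11.9% of all promoters, in 15.3% of those of protein-coding genes and in 11 of the 42 promoters that the 36 pathway genes had in the table (26.2%). Id3 held 3 Smad boxes, Smad6 2, Id2 1 and Id4 0, and at least 1 was in 88% of all promoters. Id3 and Id4 thus differed in these letters. Id2 and Id4, which both held GGCGCC, had log2 fold changes of -0.57 and 0.29, and no Id gene passed the threshold. A match is a description of the window and not a bound site, and its part in the differences was not tested.

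The GC13 arrays did not always lie on one side of FVB, as set out in the plot of GC13 replicate 2 against the mean of replicates 1 and 3. All 3 GC13 arrays lay on the same side of the FVB mean for 16 of 47 probe sets, or 34% against 39.9% of all probe sets. Replicate 2 lay opposite to replicates 1 and 3 for 19, or 40.4% against 34.6%. Of these 19, 8 had replicates 1 and 3 below the FVB mean (17% against 21.3%) and 11 had them above it (23.4% against 13.3%). In deposited intensity, before centring, GC13 replicate 2 was the lowest of the 6 arrays for 22 of 47 probe sets, or 46.8% against 33.8%. It was the highest for 10, or 21.3% against 24.9%. These ranks depend partly on scale, because its median intensity was 29.0 and those of the other arrays 34.2 to 37.4. GC13 replicate 2 also had the Gapdh ratio of 9.58.

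**Figure D3:**
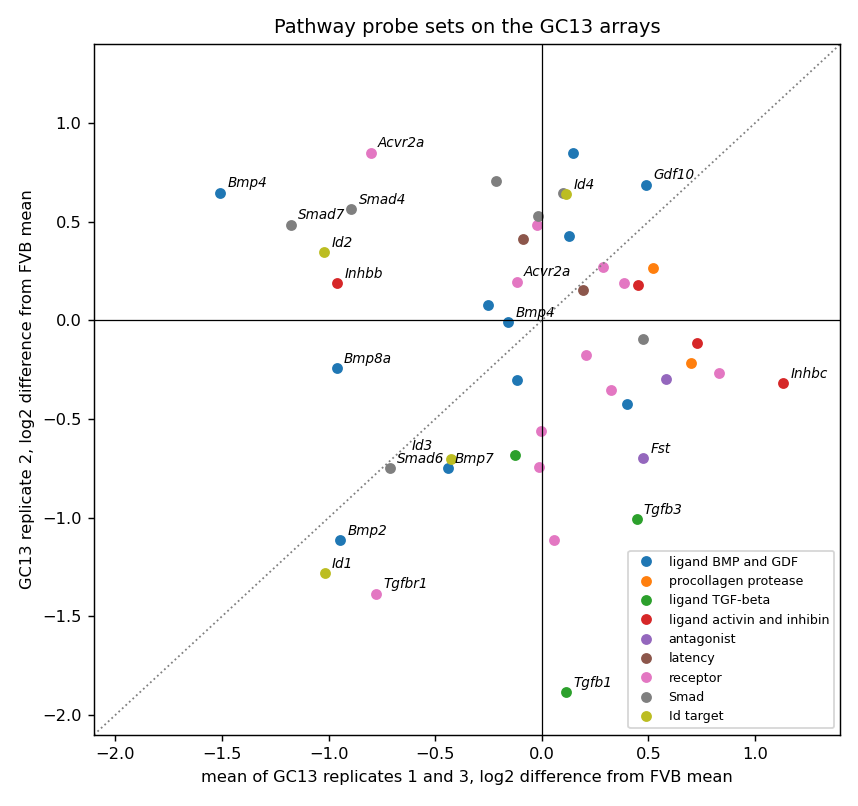
Each point is 1 of the 47 tested pathway probe sets, with its log2 difference from the FVB mean on GC13 replicate 2 (y axis) against the mean of GC13 replicates 1 and 3 (x axis); the dotted line marks equal values. Id1, Id3, Smad6, Bmp2, Bmp7 and Tgfbr1 lie in the lower left, low on all GC13 arrays. In the upper left lie Id2, Smad4, Smad7, Inhbb, 1 probe set of Bmp4 and the 2 of Acvr2a. Tgfb1 and Tgfb3 lie in the lower right.

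Without GC13 replicate 2, 12 pathway probe sets passed the threshold, 9 lower and 3 higher in GC13. The lower ones were 19.1% of those tested, beside 8.8% of all 9316 probe sets, and the higher ones 6.38% beside 6%. The 9 lower were probe sets of Id1, Id2, Smad4, Smad6, Smad7, Bmp4, Bmp8a, Inhbb and Acvr2a, and the 3 higher those of Inhba, Inhbc and Acvrl1. Smad7 fell by 1.18 on the log2 scale in that comparison (SE 0.14, limma adjusted p = 0.00913, with 0.00173 to 0.812 over its alternatives). Id2 fell by 1.02 (SE 0.15, limma adjusted p = 0.0143, with 0.00264 to 0.793 over its alternatives). Smad4 fell by 0.89 (SE 0.17, limma adjusted p = 0.0237, with 0.00627 to 0.94 over its alternatives). The dimmer probe set of Bmp4 had -1.51, Bmp8a -0.96, Inhbb -0.96 and Acvr2a -0.80, while Inhba had 0.73, Inhbc 1.13 and the brightest probe set of Acvrl1 0.83. Id1 and Smad6 had -1.02 and -0.71, close to their values with all arrays. Bmp2, Bmp7 and Id3 had -0.95, -0.44 and -0.43 and did not pass. The 2 GC13 arrays left are those with low Eif2s3y, which fell by 3.85 there (limma adjusted p = 0.00139). Uty fell by 1.04 (limma adjusted p = 0.0163). In this comparison the loss of signal of these Y-linked genes and the line cannot be told apart. Xist had a log2 difference of -0.06 there. The Gapdh ratios of these 2 arrays, 2.22 and 2.19, were above every FVB array. Of their beta-actin ratios 1.26 lay within the FVB range and 1.43 just above it.

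**Figure D4:**
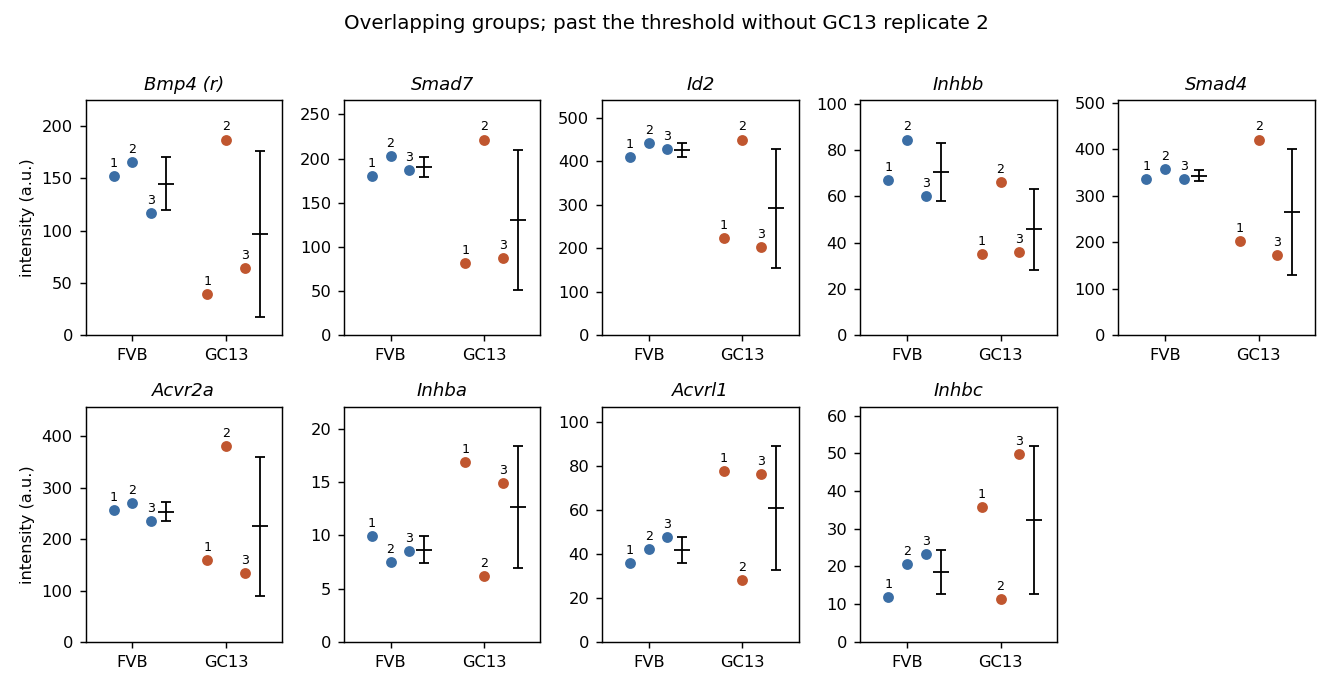
Deposited intensity (y axis, linear, from 0) on each array of the 9 pathway probe sets whose groups overlapped but which passed the threshold without GC13 replicate 2, with replicate numbers above the points and the mean ± SD (n = 3) in black; "(r)" marks the dimmer probe set of Bmp4. In each panel GC13 replicates 1 and 3 lie on the same side of all FVB arrays, while replicate 2 lies among the FVB arrays or beyond them on the other side, as for Id2 at 449.5 against 223 and 203.

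Other genes of the pathways came from a list of modulators, co-receptors, intracellular regulators and target genes. Of its genes 56 had a probe set and 51 were tested, of which 0 rose and 0 fell at the threshold. At an unadjusted limma p under 0.05, 10 would count as higher, or 19.6% against 8.52% of all probe sets, and 5 as lower, or 9.8% against 6.93%. The list's median log2 fold change was 0.11 beside 0.08 for all probe sets. The groups did not overlap for 8 higher genes, or 15.7% against 10.6% of all probe sets, and for 7 lower ones, or 13.7% against 12.3%. Without GC13 replicate 2, 6 passed higher, or 11.8% against 6% of all probe sets, and 4 lower, or 7.84% against 8.8%.

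The target genes on the list lay on both sides. In deposited intensity 5 of 24 tested targets were lower on every GC13 array, Dlx3, Msx1, Msx2, Cdkn1a and Junb. Higher on every one were 5, Snai1, Snai2, Col1a1, Col1a2 and Lox. Each count is 20.8% of the targets, against 12.3% of all probe sets lower and 10.6% higher. Apart from Dlx3 and Snai1, these were picked out after their values were seen. Dlx3, a BMP-responsive homeobox gene of the hair matrix, had FVB intensities of 726, 719 and 663 and GC13 intensities of 355, 355 and 403 and a log2 fold change of -0.85 (SE 0.19, adjusted p = 0.126 by limma). Msx1, a homeobox gene induced by BMP, had FVB intensities of 253, 234 and 212 and GC13 intensities of 107, 164 and 115 and a log2 fold change of -0.80 (SE 0.28, adjusted p = 0.24 by limma). Its relative Msx2 had -0.53 (SE 0.32), and on the centred scale GC13 replicate 2 lay 0.02 above the FVB mean for Msx2. Cdkn1a, the gene of the cell cycle inhibitor p21, had FVB intensities of 299, 286 and 355 and GC13 intensities of 179, 161 and 191 and a log2 fold change of -0.74 (SE 0.20, adjusted p = 0.151 by limma). Junb, an AP-1 subunit gene, had -0.77 (SE 0.24). None of these passed with all arrays. Cdkn1a and Junb each had 2 probe sets, as had Col1a1, Col1a2 and Lox, and the values are those of the brighter. Over 16 alternatives in the processing, Junb ran from -1.84 to -0.59 and Cdkn1a from -1.24 to -0.66. Over the 9 hair follicle markers the summed intensity was 14783 to 15642 in FVB and 12875 to 14863 in GC13, so the groups overlapped. That sum rests on a few bright keratin genes. In deposited intensity 5 of the 9 markers were lower on every GC13 array, beside 12.3% of all probe sets. Their log2 fold changes were -2.60 for Foxn1, -0.66 for Krt83, -0.60 for Gata3, -0.47 for Krt86 and -0.17 for Krt31. The groups overlapped for Krt71, Lef1, Krt25 and Krt27, with log2 fold changes of 0.35, 0.16, 0.05 and -0.03. Foxn1 had GC13 intensities of 19.0, 1.31 and 4.35, the last 2 under the low-signal limit of 6.22, so its difference is a description only. For Krt31, GC13 replicate 2 lay 0.19 above the FVB mean on the centred scale. The part of the follicle markers in these differences was not tested.

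On the other side, Snai1, a repressor of epithelial genes, had FVB intensities of 15.5, 17.0 and 18.0 and GC13 intensities of 30.5, 22.5 and 36.3 and a log2 fold change of 0.81 (SE 0.20, adjusted p = 0.135 by limma). Snai2 had FVB intensities of 247, 238 and 221 and GC13 intensities of 347, 348 and 329, with very close values within each group, and a log2 fold change of 0.61 (SE 0.21, adjusted p = 0.233 by limma). The collagen I genes Col1a1 and Col1a2 had 0.54 (SE 0.21) and 0.64 (SE 0.21), and the collagen cross-linking gene Lox had 0.67 (SE 0.26). The summed intensity of the 7 dermal fibroblast markers, Col1a1 and Col1a2 among them, was 7354 to 8088 in FVB and 9355 to 11190 in GC13. Without these genes the other 5 summed to 3614 to 4023 and 4514 to 4729, and their part in these differences was not tested. Other targets of TGF-beta overlapped between the groups. The fibronectin gene Fn1 had 0.62 (SE 0.25), Tgfbi 0.38 (SE 0.26) and Postn 0.23 (SE 0.23). Tagln had -0.40 (SE 0.21), Cdkn2b -0.18 (SE 0.41), Acta2 -0.15 (SE 0.35) and Ccn1 -0.07 (SE 0.26). Of all 24 tested targets on the list 12 lay below 0, and their median log2 fold change was 0.01. Ccn2, a matricellular protein gene, was highest on GC13 replicate 2, at 258, and lowest on GC13 replicate 3, at 81.8.

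**Figure D5:**
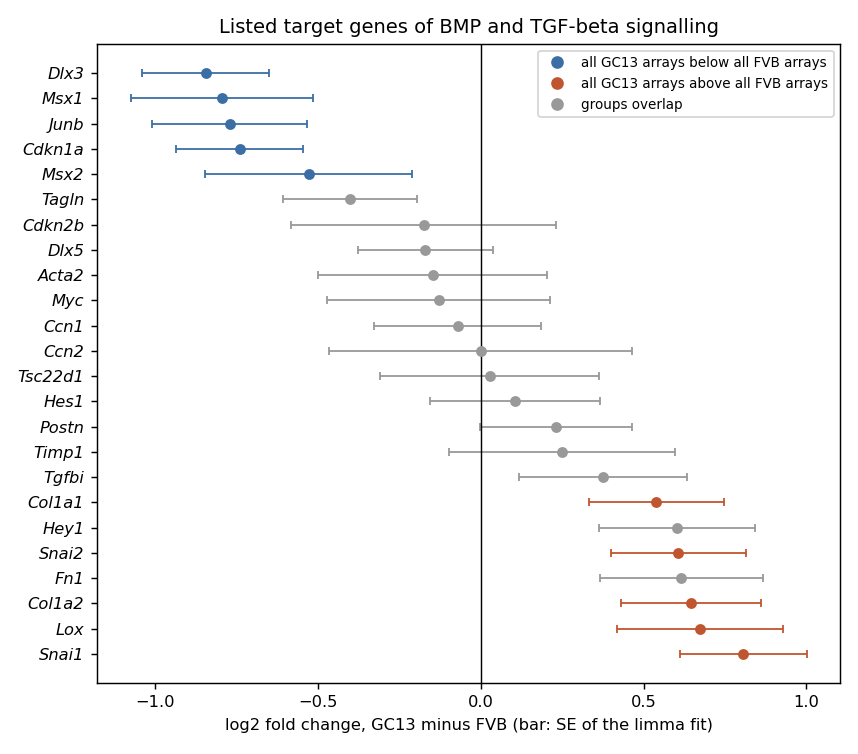
Log2 fold changes (GC13 minus FVB, x axis) of the 24 tested target genes on the list, with the standard error of the limma fit as bars. In deposited intensity, blue marks genes with all GC13 arrays below all FVB arrays and orange those with all above. The 5 blue genes run from Dlx3 at -0.85 to Msx2 at -0.53 and the 5 orange genes from Col1a1 at 0.54 to Snai1 at 0.81; none passed the threshold.

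Among modulators and co-receptors, Eng encodes endoglin, a TGF-beta and BMP co-receptor of endothelium. It had FVB intensities of 192, 193 and 212 and GC13 intensities of 619, 248 and 369 and a log2 fold change of 1.02 (SE 0.30, adjusted p = 0.182 by limma). The 6 other endothelial markers summed to 422 to 548 in FVB and 497 to 608 in GC13, so the groups overlapped. Among them Kdr was higher on every GC13 array, with a log2 fold change of 0.39, and Cldn5 lower on every one, with -0.65. The part of these markers in the difference was not tested. Twsg1, which encodes the BMP modulator twisted gastrulation, had FVB intensities of 128, 127 and 134 and GC13 intensities of 218, 169 and 188 and a log2 fold change of 0.62 (SE 0.20, adjusted p = 0.205 by limma). For both genes the lowest GC13 array lay above the highest FVB array. Pcsk5, a proprotein convertase gene, had 0.89 (SE 0.28) on the brightest of its 3 probe sets. The myostatin gene Mstn had 0.51 (SE 0.26), and the groups overlapped for both genes. Of the intracellular regulators, Runx1, a partner of Smads in transcription, had FVB intensities of 21.5, 28.4 and 18.9 and GC13 intensities of 13.9, 6.78 and 11.6 and a log2 fold change of -0.92 (SE 0.25, adjusted p = 0.158 by limma). Stub1, a ubiquitin ligase gene, had -0.61 (SE 0.26).

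Other markers of skin cell types did not pass the threshold, and their sums overlapped for some types only. The sum over the 7 markers of skin epithelium was 5691 to 5930 in FVB and 6231 to 10565 in GC13. Of these markers Krt1 and Flg, both keratinocyte differentiation genes, were higher on every GC13 array, with log2 fold changes of 1.11 and 1.05, while Krt10 and Trp63 overlapped, with 0.13 and 0.02. The 6 melanocyte markers summed to 1143 to 1194 in FVB and 687 to 899 in GC13. Sums over skeletal muscle markers were 2154 to 2317 and 2381 to 2735, and those over adipocyte markers 1519.6 to 1609 and 1657 to 2413. The sums over macrophage and leukocyte markers overlapped, at 485 to 522 and 411 to 498. The part of cell composition in the differences between pathway genes was not tested.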

How the data were processed

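Total RNA of whole skin from 3 FVB and 3 GC13 samples was measured on 6 single-sample arrays. What was deposited for each array was 1 linear intensity per probe set, for 12488 probe sets. The software behind them is not given in the sources used here. In the values, the mean of each array without its highest and lowest 2% was 100.1. Leaving out 66 control probe sets, intensities were set to log2(intensity + 2), and arrays, whose medians differed by up to 0.345, were centred on them. The pseudocount of 2 is the 10th percentile of all intensities rounded. A filter on the 25% of lowest mean left 9316 probe sets. The groups entered a 2-group linear model with moderated, two-sided tests (limma 3.58.1, R 4.3.3). The fit was tested on simulated data. Arrays give no depth, so their number, 3 per group, limits the precision.

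Gene names came from the platform annotation, updated through Entrez identifiers with the RefSeq table of GRCm38.p6. Of 12422 probe sets 10833 had 1 symbol, 396 several and 1193 none. A gene stands by its probe set with the highest mean. Values on every array are given for members whose groups did not overlap, for the 8 with the highest mean, and, chosen after their values were seen, for others, most of which passed without GC13 replicate 2 or were lowest on that array. For the list of further pathway genes, the rule took the 2 with the smallest p in each of 4 groups. The members and lists were chosen with earlier results of these data known. Alternatives were other pseudocounts, filters, scalings, variance models, array weights, a replicate block, averaged probe sets and leaving out each array.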

Additional observations from a re-analysis of the deposited data

How the results depend on the processing

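With all 6 arrays weighted alike, 0 pathway probe sets passed under any pseudocount, filter, scaling, variance trend or replicate block. Array weights gave GC13 replicate 2 a weight of 0.107 and GC13 replicate 1 one of 4.12. With them 7 pathway probe sets passed higher, or 14.9% against 22% of all probe sets (2050). Lower ones numbered 14, or 29.8% against 19.3% of all (1800). Of the 51 tested further pathway genes 17 passed higher and 11 lower. Leaving out 1 array gave 0 to 3 pathway probe sets higher and 0 to 9 lower, 0 to 559 and 0 to 820 of all probe sets, and 0 to 6 and 0 to 4 further pathway genes, with the high end always without GC13 replicate 2. Of the 8 higher and 36 lower probe sets in all, the counts became 18 and 65 with a pseudocount of 16, 32 and 87 with 32, 16 and 62 with the replicate block, 12 higher with a variance trend, 5 higher without a filter, 5 higher with quantile normalization, 2 higher without centring and 15 lower with a filter of 50%. Of the further pathway genes 1, Dlx3, passed with a pseudocount of 16 and 2, Dlx3 and Cdkn1a, with 32, all lower. The median log2 fold change of the pathway probe sets was -0.014 with the 50% filter and -0.0061 with quantile normalization, and ran from -0.048 to 0.087 when 1 array was left out. Smad1 turned to -0.022 with quantile normalization and -0.21 with array weights, Tgfb1 to 0.047 and Tgfb3 to 0.48 with array weights. Without 1 array, log2 fold changes ran from -0.22 to 0.26 for Smad1, -0.89 to 0.11 for Tgfb1, -0.29 to 0.44 for Tgfb3, -0.80 to 0.11 for Acvr2a and -0.11 to 0.48 for Fst. Beyond what these alternatives change by construction, the cause was not tested. Same-numbered FVB and GC13 samples had correlations of deviations of -0.07, 0.18 and 0.36 for replicates 1, 2 and 3, so the numbers were not taken as pairs, and the block changed no call among the pathway genes. Over 41 named genes, directions were otherwise kept.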
